A study of Drosophila melanogaster with 2 samples.

Results

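The loci described here are transcript models that the authors assembled inside introns of annotated Drosophila melanogaster genes and that match no annotated gene. A row of the expression table was taken where its identifier began with XLOC, the assembler's name for a locus without a known gene, and its transcript carried the class code i, which marks a model lying wholly within an intron. The host gene was taken from the attribute that names this intron. Scaffolds of unplaced sequence (U and Uextra) were left out, which removed 8 loci. This gave 1620 loci of 19391 rows in all, in 836 host genes. The host named by the attribute had an annotated intron around the locus in 1620 of 1620 cases. Of these loci, 60 also lay inside the span of other genes. For 33 loci the shortest gene around the locus was not the named host.

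There were 2 libraries, 1 of females and 1 of males, called the female and the male pool below. Each was made from whole adults aged 3 to 5 days. For each sex, 192 inbred DGRP lines gave 200 ng of total RNA apiece, which was pooled. DGRP, the Drosophila Genetic Reference Panel, is a collection of lines inbred from flies of a natural population. Both pools held the same kind of material, untreated, and no line can be told apart in them. Polyadenylated RNA was made into TruSeq libraries and sequenced as 100 nt paired reads, with both libraries in 1 lane. With 1 library per sex there is no replicate check on any difference below. In whole flies, fewer cells of a type and less RNA per cell cannot be told apart. Of 6 female markers (yolk proteins, oogenesis genes) 6 stood 2-fold or more higher in the female pool, and of 6 male markers (seminal fluid proteins, sperm genes, the roX RNAs) 6 stood 2-fold or more higher in the male one.

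An intron is removed from the primary transcript and is usually degraded, so a library of polyadenylated RNA holds little of it. Models inside an intron can come from independent genes nested there, on either strand, from alternative or unannotated exons of the host, or from host precursor RNA that was not yet spliced. In Drosophila, genes that act in the nervous system and in development often have long introns, and the testis is known to transcribe many stretches that are not annotated as genes.

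Most of the loci were short, unspliced models without a strand. Their exon length ran from 117 to 7738 nt, with a median of 702.5 nt. Of the 1620 loci, 1439 had 1 exon and 181 (11.2%) were spliced, 153 of them with 2 exons and 28 with 3 or 4. No strand was given for 1420 loci (87.7%), so for these it cannot be told whether the RNA ran with the host or against it. Of the 181 spliced loci, 121 (66.9%) lay antisense to their host and 60 in its direction. Annotated exons overlapped 10 loci. For 9 of these the exon belonged to another transcript of the host itself, with 712 nt of overlap for XLOC_000005 in Gsc (goosecoid, a homeodomain transcription factor). The remaining locus, XLOC_005555 in CG32683, overlapped the small nucleolar RNA snoRNA:Me28S-A1705 by 79 nt.

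The authors' table gives FPKM, fragments per kilobase of model, scaled to the number of fragments in the library. For unspliced models of at least 300 nt without a strand, these values fell on whole multiples of the worth of 1 fragment once a length of 145 nt in the female pool and 190 nt in the male pool was taken off each model. The steps corresponded to 81.1 x 1e6 fragments in the female pool and 87.5 x 1e6 in the male pool. Among models kept out of the fit, 343 of 343 female values between 5.5 and 20.5 steps and 542 of 551 male values (98.4%) came within 0.15 of a whole number, where 30% would by chance. Fragment numbers were recovered in this way for 1276 of the 1620 loci. Spliced models did not give whole numbers, and for them only FPKM is given. Fragments without molecular tags are not independent molecules, so intervals on them cover counting error only.

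Every one of the 1276 loci had at least 10 fragments in 1 of the libraries, and 86 had exactly 10 in the library with more. No such locus in the table lay below that number in both sexes. For the other 344 loci, spliced, stranded, short or with several transcripts, no fragment number could be read. At the lengths of these models, 10 fragments were worth a median of 0.209 FPKM in the female pool and 0.210 in the male pool. Both libraries reached 10 fragments at 538 loci, the male pool alone at 624 and the female pool alone at 114. The female pool had 0 fragments at 258 of the 1276 loci and the male pool at 11. Summed over the loci there were 25480 female and 67212 male fragments, with medians of 10 and 24 per locus.

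**Figure D1:**
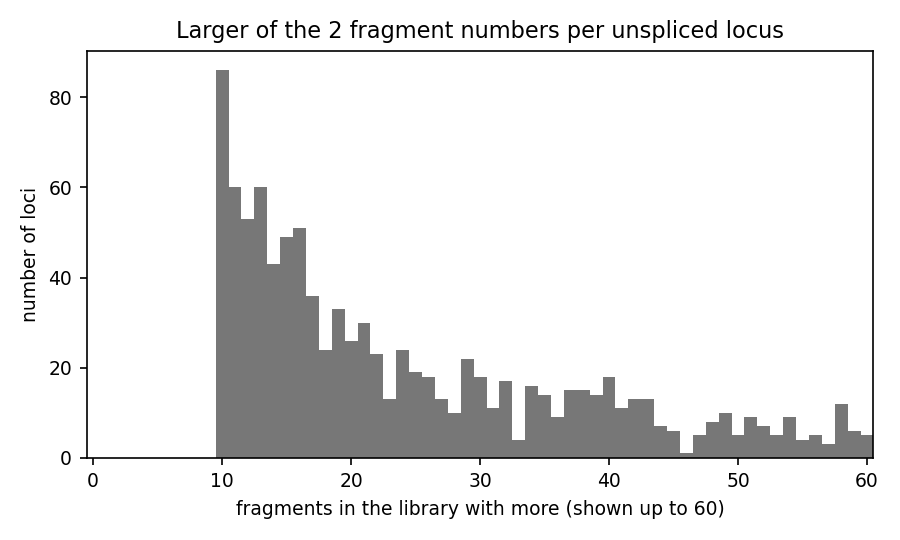
Number of loci (vertical axis) by the number of fragments in the library that had more (horizontal axis, shown up to 60), for the 1276 unspliced loci with recovered fragments. The bars begin at 10 fragments, which is also the tallest bar with 86 loci.

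Levels were low and mostly higher in the male pool. The median locus was at 0.162 FPKM in the female pool and 0.600 FPKM in the male pool, and the male value was the larger at 1336 of 1620 loci. Zero was listed for 344 loci in the female pool, for 21 in the male pool and for 0 in both. At least 1 FPKM was reached by 247 loci (15.2%) in the female and 530 loci (32.7%) in the male pool, where all rows of the table gave 52.5% and 70.8%. All 1620 loci together made up 0.183% of the female and 0.284% of the male FPKM sum. The 12 loci highest in each library held 28.7% of that intronic sum in the female pool and 25.2% in the male pool.

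A sex difference was counted on FPKM where log2((female FPKM + 1)/(male FPKM + 1)) reached 1 or -1, a 2-fold change on this scale, at a locus with at least 1 FPKM in 1 library. This scale understates the change of low loci, and a locus near 0 in 1 pool that passes through the other is at or close to 2-fold by construction. Of the 588 intronic loci at that level, 260 were male-higher (44.2%, Wilson 95% interval 40.3 to 48.3%), 35 were female-higher and 293 lay under 2-fold. Over all 14108 rows at that level, 40.7% were male-higher and 21.5% female-higher, so the male-higher share of the intronic loci was near that of the table. Their median log2 ratio was -0.78, and that of all rows -0.58. Both libraries were also set to the same FPKM sum by multiplying the male values by 0.703 before 1 FPKM was added. The level was then reached by 472 loci in place of 588, with 161 male-higher, 47 female-higher and a median log2 ratio of -0.44. The female-higher share of the calls was then 22.6% in place of 11.9%.

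From fragments, with no level needed beyond the 10 that every locus had, the split was wider. Of 1276 loci, 793 were at least 2-fold male-higher (62.1%, Wilson 95% interval 59.5 to 64.8%) and 100 were female-higher (7.84%). Over all 2593 unspliced unannotated loci treated the same way, which include these, 72.0% were male-higher and 7.48% female-higher. Between genes, 1074 of 1317 unspliced loci were male-higher (81.5%, interval 79.4 to 83.6%), so the intronic share was the lower one. Loci are not replicates and some are close neighbours, so these intervals cover counting over loci only. The 95% counting interval of a locus's own fragment ratio left out equality at 821 loci in the male direction and at 78 in the female direction. This is at the deposited scaling, and 624 loci were in the set through the male pool alone and 114 through the female pool alone. At 2-fold, equal sums gave 647 male-higher and 136 female-higher loci. With ribosomal protein genes set equal there were 1060 and 49.

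**Figure D2:**
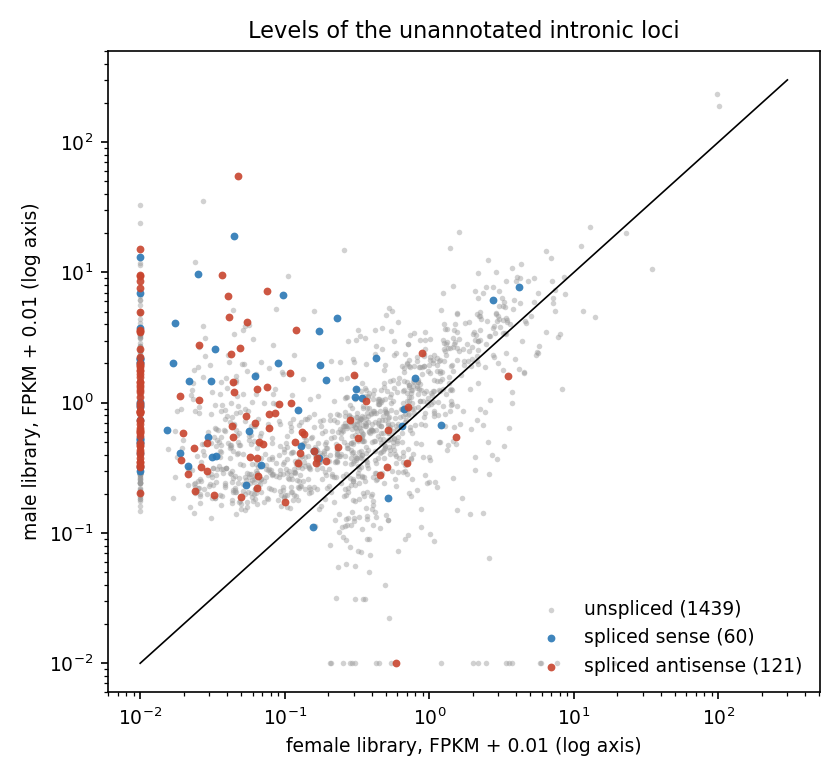
Female FPKM (horizontal) against male FPKM (vertical) of the 1620 loci, both on log axes after adding 0.01, with grey points for unspliced, blue for spliced sense and red for spliced antisense loci and a line at equal levels. Of the 181 spliced loci 172 lie above the line, and the column at the left edge holds the 344 loci listed at 0 in the female pool.

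Position inside the intron separated the loci. The nearest host exon was a median of 1234 nt away. Within 100 nt of a host exon, the 137 loci with fragments had medians of 15 female and 24 male fragments, and 43.8% of them were male-higher (Wilson 95% interval 35.8 to 52.2%). From there to 500 nt, the medians were 13.5 and 25 and 47.0% of 270 loci were male-higher. From there to 2000 nt, they were 11 and 25, and 61.1% of 388 were male-higher. Beyond 2000 nt, the medians were 2 female and 23 male fragments, and 76.7% of 481 were male-higher (interval 72.7 to 80.3%). The male median thus hardly moved with distance while the female median fell, in loci that all had 10 fragments in at least 1 pool. Female-higher loci made up 13.9% of the nearest group and 6.44% of the farthest. Under the equal-sum scaling the male-higher shares of the nearest and farthest groups were 29.2% and 67.8%, and with ribosomal protein genes set equal they were 68.6% and 88.6%.

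The length of the holding intron gave the same order. The median intron with a locus was 7314 nt long, whereas the median of all 59220 annotated introns was 97 nt. In introns up to 1000 nt, the median locus had 19 female and 19 male fragments, and 26.8% of 41 loci were male-higher. In introns over 20000 nt, the medians were 1 and 24 fragments, and 82.1% of 262 were male-higher (interval 77.0 to 86.2%). The groups with intermediate introns lay between, at 48.9% for those up to 5000 nt and 66.5% for those up to 20000 nt. Distance also mattered among long introns alone. In those over 5000 nt, 57.6% of 92 loci within 500 nt of an exon were male-higher (interval 47.4 to 67.2%) and 76.9% of 480 loci beyond 2000 nt were (interval 72.9 to 80.4%).

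**Figure D3:**
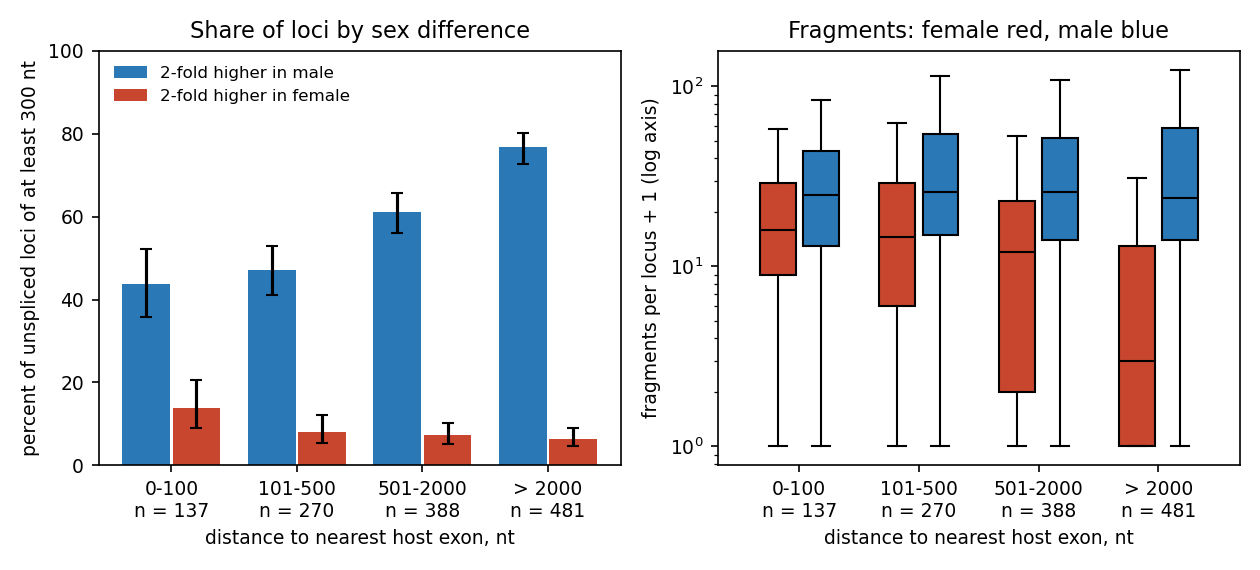
Left, percent of unspliced loci with recovered fragments that were at least 2-fold male-higher (blue) or female-higher (red) by distance to the nearest host exon, with Wilson 95% intervals over loci as error bars. Right, fragments per locus plus 1 on a log axis for the same groups, as boxes of median and quartiles with whiskers to 1.5 times the box height, and the female median falls from 15 to 2 fragments while the male median stays between 23 and 25.

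Over all arms together, the log2 ratios of loci and hosts ran together most closely near exons. Across the 62 loci within 100 nt of an exon that reached 1 FPKM, Spearman's rho between the log2 ratio of the locus and that of its host was 0.47. It was lower within the X (0.27, 17 loci) and within the large autosomal arms (0.38, 43 loci). Over all arms rho was 0.14 over 151 loci from there to 500 nt, 0.05 over 176 loci from there to 2000 nt, and -0.02 over 199 loci beyond 2000 nt. In the same steps it was 0.26 (24 loci), 0.31 (22 loci) and 0.11 (19 loci) within the X, so not highest near exons there. Within the large autosomal arms it was 0.13 (122 loci), 0.0009 (145 loci) and -0.12 (166 loci). These are descriptions across loci of the same libraries, and loci of 1 gene share their host value. Over all distances, the share of male-higher loci did not follow the call of the host. It was 107 of 248 loci at 1 FPKM (43.1%) in male-higher hosts, 35 of 71 (49.3%) in female-higher hosts and 118 of 269 (43.9%) in the other hosts, all near the 44.2% of the intronic loci as a whole. Female-higher loci numbered 8, 4 and 23 in these hosts.

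**Figure D4:**
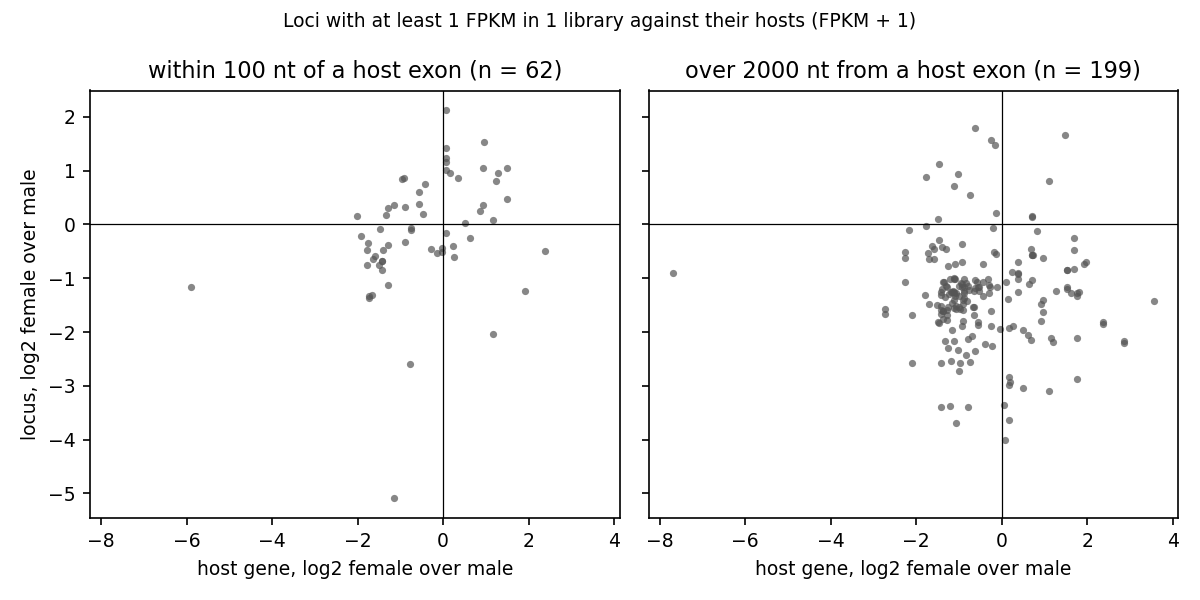
Log2 ratio of female over male FPKM (1 added to each) of the locus, vertical, against that of its host gene, horizontal, for loci with at least 1 FPKM in 1 library. The 62 loci within 100 nt of a host exon, left, lie on both sides of 0 on the vertical axis, and most of the 199 loci over 2000 nt away, right, lie below 0 whatever the host does.

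Loci were far below their hosts. The median locus stood at 5.31% of its host's FPKM in the female pool and at 8.81% in the male pool. A locus exceeded its host at 32 loci in the female pool, at 60 in the male pool and at 9 in both. Of these, XLOC_005798 in Ten-a was at 55.1 FPKM in the male pool with the host at 7.34, and XLOC_001493 in CG30440 was at 18.8 with the host at 3.22. XLOC_003401 in CG9760 exceeded its host in both libraries, at 1.38 and 15.3 FPKM beside 0.683 and 2.39. XLOC_001078, in an intron of let-7-C, the precursor gene of the let-7 microRNA cluster, also exceeded its host in both. It was at 2.53 and 12.4 FPKM beside 0.260 and 0.765. This model is only 213 nt long, too short for a fragment number to be read. In so short a model a fragment is worth more FPKM than in a longer one. The part of model length in its level, its excess over the host and its sex contrast was not tested.

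Spliced loci were mostly male-higher. Of 181, 172 were higher in the male pool. At the level of 1 FPKM, 67 of 78 were at least 2-fold male-higher (85.9%, Wilson 95% interval 76.5 to 91.9%) and 0 were female-higher, beside 40.7% and 21.5% over all rows. Antisense loci gave 44 of 48 and sense loci 23 of 30. Spliced loci between genes gave 146 of 178 (82.0%), so the share was close to that of intergenic models. Only 5 of the spliced loci reached 1 FPKM in the female pool, so most of the 78 passed through the male pool alone and had to lie near or past 2-fold. With at least 1 FPKM required in both libraries, only 3 spliced loci remained, and 0 of these were male-higher at 2-fold.

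The strongest spliced locus was XLOC_005798, antisense in the intron numbered 2 of Ten-a, a teneurin, a transmembrane protein that matches synaptic partners. It has 507 nt of exon at chrX:12168700-12169387 (BDGP5 coordinates, as are all below). It was at 0.0373 FPKM in the female pool and 55.1 FPKM in the male pool, a log2 ratio of -5.76. XLOC_002727, antisense in hipk, a nuclear kinase gene, was listed at 0 in the female pool and at 15 FPKM in the male pool. Its position was chr3L:553001-553755, 4933 nt from the nearest exon of hipk. Host levels were alike there, at 25.5 and 23.9 FPKM.

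XLOC_001493 ran in the direction of CG30440 with 2420 nt of exon and was at 0.0343 and 18.8 FPKM. Its host went the other way, at 21.0 FPKM for females and 3.22 FPKM for males. XLOC_001438 in CG13506 was listed at 0 and 13.1 FPKM, with 200 nt of exon. XLOC_002747 in Pxn, the gene for the extracellular matrix enzyme peroxidasin, was at 0.0152 and 9.70 FPKM. XLOC_004366 in LpR2, a lipophorin receptor that takes up lipid, was the exception among these spliced loci, at 4.14 and 7.72 FPKM and so under 2-fold.

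Among unspliced loci, the firmest difference was at XLOC_000884 in Pde1c, a calmodulin-dependent phosphodiesterase gene (chr2L:11834045-11834904, 185 nt from an exon). It had 1 female and 2061 male fragments. On the FPKM scale this is 0.0172 and 35.2, a male over female ratio of 2039 with a 95% counting interval of 366 to 80590. Pde1c itself was at 5.5 and 29 FPKM, so the locus lay above its host in the male pool alone. XLOC_003401 in CG9760 had 22 and 203 fragments, a ratio of 11.1 (interval 7.13 to 18.1).

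Other loci, picked after their values were seen, had similar contrasts. XLOC_004644 in CG34114 had 1 and 893 fragments. XLOC_006265 in Flo-2, a flotillin gene, had 0 and 585, at least 195-fold higher in the male pool when 3 fragments stand in for 0. The same 83206 nt intron of Flo-2 held a spliced sense locus, XLOC_005600, at 0 and 6.94 FPKM and a spliced antisense locus, XLOC_005824, at 0 and 0.981 FPKM. Flo-2 itself was at 19.4 and 17.1 FPKM. XLOC_000730 in Pvf2, which encodes a ligand of the PDGF and VEGF receptor family, had 0 and 462 fragments, and XLOC_003151 in sif, a Rac exchange factor gene, had 0 and 362.

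The highest loci of all were very short models. XLOC_006401 in Cbs, the cystathionine beta-synthase gene, has 117 nt and was at 98.3 and 232 FPKM. XLOC_001167 in nrv3, a beta subunit of the sodium pump, has 121 nt and was at 100.8 and 188 FPKM. Of the 12 loci with the highest mean FPKM, 8 were under 200 nt and 9 under 300 nt, while 42 of all 1620 loci (2.59%) were under 200 nt. In models about as short as the lengths taken off above, a fragment is worth many times more FPKM, and no fragment number could be recovered for them. The part of this in their level was not tested.

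Besides the Ten-a locus, the longer ones among the highest were XLOC_000635 in Thor, the translation inhibitor 4E-BP, and XLOC_000884 in Pde1c. The Thor locus, 322 nt long and 1 nt from an exon, had 328 female and 230 male fragments. The male over female ratio in FPKM was 0.872 (95% counting interval 0.733 to 1.04), which included equality at the deposited scaling. The other scalings used here multiply this ratio by 0.703 or 1.92, and under neither does the interval include equality. Its 22.8 and 19.9 FPKM stood beside 245 and 339 FPKM for Thor. The remaining high loci lay in nrv3, CASK, CG42261, arm, sbb, bves and PhKgamma and had 137 to 200 nt of exon. Of these, XLOC_004937 in CASK, a membrane scaffold gene, was at 13.0 and 22.2 FPKM, and XLOC_005980 in arm, the fly beta-catenin gene, at 11.1 and 15.8. XLOC_006205 in PhKgamma, the catalytic subunit gene of phosphorylase kinase, was at 6.42 and 14.7.

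XLOC_005075 in CG42261 and XLOC_002176 in sbb, which encodes a nuclear protein, were listed at 0 in the female pool and at 33.2 and 24 FPKM in the male pool. XLOC_006402 in bves was at 1.60 and 20.3 FPKM. XLOC_002131 in CG15611, 150 nt long and among the 5 loci highest against their host in the female pool, was at 8.73 and 6.80 FPKM beside 11.9 and 22.8.

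Female-higher loci were few. From fragments, read only at 300 nt or more, they were 100 of 1276 loci (7.84%), beside 7.48% over all unspliced unannotated loci. Most of those called on FPKM were short. Of the 35 called on FPKM, 26 were under 300 nt and 12 under the 190 nt taken off male models. Among the 6 most female-higher, 5 were between 140 and 181 nt and listed at 0 in the male pool. XLOC_006194 in dlg1, a scaffold of septate junctions and synapses, was at 18.9 and 0 FPKM. XLOC_003478 in Trl, the GAGA factor gene, was at 7.69 and 0, XLOC_002121 in Pkc53E, a protein kinase C, at 5.87 and 0, and XLOC_004603 in RhoL, a small GTPase, at 5.83 and 0. XLOC_002084 in tun was at 3.55 and 0. Across all loci, 31 models were under 190 nt, of which 6 were listed at 0 in the male and 1 in the female pool. How far model length made these contrasts was not tested.

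The sixth, XLOC_006297 in mthl1, a receptor gene of the methuselah family, was 507 nt long and could be read in fragments. It had 110 female and 0 male fragments, at least 34.6-fold higher in the female pool with 3 fragments in place of 0. The host was at 8.54 and 6.05 FPKM. The locus lay at chrX:16539659-16540165, 1636 nt from the nearest exon.

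Long genes were more often hosts. Hosts had a median span of 24113 nt, and all annotated genes 1860 nt. Of 12323 genes up to 5000 nt, 39 were hosts (0.316%). The share rose to 12.7% of 2533 genes of up to 20000 nt, to 38.2% of 728 genes up to 50000 nt and to 65.0% of 303 longer genes. Altogether 836 of 15887 annotated genes (5.26%) were hosts. A longer gene can hold more intron, so these shares are not a density of loci, and the part of intron length in them was not tested. The first intron held 650 loci (40.1%), numbered in the host transcript with the shortest intron around the locus. The share of all intron sequence that is first intron was not computed.

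Several loci in the same gene were common. A host had 1 locus in 489 cases, 2 or more in 347 and 5 or more in 65, and the latter hosts held 418 loci. Adjacent models are not always separate transcripts. Of 784 neighbouring pairs within a host, 172 were at most 200 nt apart, and 9 overlapped. Joining these left 1448 clusters, with 2 or more in 309 hosts and 5 or more in 42. Of the hosts described below, the 10 loci of sick joined to 4 clusters, the 10 of CG13954 to 6 and the 9 of grh to 5, and the other hosts among the 12 with most loci kept 7 to 10. Among 95 hosts with at least 2 loci at 1 FPKM, 34 had 2 or more male-higher loci, 3 had 2 or more female-higher loci, and 4 had loci in both directions.

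SKIP, a gene for a protein that interacts with the Shal potassium channel, carried the most loci, 13 in 10 clusters. Of them, 12 lay in an intron of 102909 nt. The loci were low, from 0 to 0.140 FPKM for females and from 0.186 to 0.730 FPKM for males. All 13 were higher in the male pool. SKIP itself was at 45.9 FPKM for females and 3.62 FPKM for males, so the loci and the host differed in opposite directions. The longest model, XLOC_004965 with 4522 nt, had 50 and 114 fragments, and XLOC_004959 had 3 and 69.

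Ten-a carried 10 loci. Outside the strong antisense locus, they lay between 0 and 0.559 FPKM in the female pool and 0.196 and 0.600 in the male pool. The 5 loci in its intron of 14596 nt had 10 to 19 female and 8 to 24 male fragments. Of these, 4 were slightly higher in the female pool, for example XLOC_006228 with 15 and 8 fragments. XLOC_006223 and XLOC_006224 in other introns had 0 female and 13 and 12 male fragments.

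The 10 loci of dpr6, an immunoglobulin family receptor of neurons, were nearly silent in the female pool. They lay between 0 and 0.0303 FPKM there and between 0.193 and 6.55 FPKM in the male pool. The unspliced ones reached 10 fragments in the male pool alone, which sets a floor under their male values. XLOC_003294 had 0 and 338 fragments, at least 108-fold higher in the male pool with 3 fragments in place of 0, and XLOC_003293 had 1 and 93. The spliced antisense locus XLOC_002833 was at 0.0303 and 6.55 FPKM. dpr6 itself was at 8.35 and 1.77 FPKM, in the other direction.

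In olf413, 7 of 10 loci were listed at 0 in the female pool. The highest was the spliced antisense locus XLOC_002993 at 0 and 8.62 FPKM. XLOC_003703 had 0 and 96 fragments and XLOC_003701 had 1 and 81. Its host moved the same way, at 1.17 and 3.65 FPKM. CG34353 gave a like picture with 8 loci, 6 of them listed at 0 in the female pool, among them XLOC_005120 with 0 and 103 fragments. The 8 loci of pk (prickle, a planar cell polarity gene) were all higher in the male pool. XLOC_001838 had 28 and 75 fragments there.

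The 10 loci of sick, a gene of axon growth, fell into 2 kinds. In an intron of 9641 nt, 5 models close to each other were expressed in both sexes, with 46 and 48 fragments at XLOC_001108 and 264 and 472 at XLOC_001112. The other 5 were listed at 0 in the female pool and between 0.954 and 2.46 FPKM in the male pool, and XLOC_001105 had 0 and 186 fragments. The 10 loci of CG13954 all lay in an intron of 57503 nt and were all higher in the male pool, at 0.139 FPKM or less in the female pool. XLOC_001894 and XLOC_001895, 3090 and 3593 nt long, had 27 and 88, and 13 and 77 fragments.

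CG42596, on the heterochromatic scaffold 2RHet, held 9 loci. Of these, 7 were present in both sexes with 11 to 19 female and 13 to 44 male fragments. The largest contrast among these 7 was at XLOC_002434 with 19 and 44 fragments, a male over female ratio of 2.34 (95% counting interval 1.34 to 4.25). The other 2 loci were nearly at 0 in the female pool. XLOC_002431 had 2 and 307 fragments, and the spliced antisense XLOC_002408 was at 0.0323 and 2.34 FPKM. kirre, an adhesion gene of myoblast fusion, had 9 loci, 8 of them higher in the male pool. The exception was the 210 nt model XLOC_006012 at 2.46 and 0 FPKM.

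trol and grh were the hosts with most loci that ran towards the female pool. trol encodes perlecan, a heparan sulfate proteoglycan of basement membranes. Its 9 loci summed to 29.7 FPKM for females and 14.4 FPKM for males, while trol was at 31.5 and 29.96 FPKM. Of the 9 loci, 8 were higher in the female pool and 6 were female-higher at 2-fold. They lay in 7 short introns of 385 to 3711 nt along the gene, with a median of 47 nt to the nearest exon. XLOC_006001 had 85 and 12 fragments, XLOC_006002 had 75 and 10, and XLOC_006004 had 64 and 11. XLOC_006006 had 47 and 3, and XLOC_005999 had 71 and 24. XLOC_006000, in the same intron as the last, had 182 and 167. Neighbouring loci of trol thus ranged from equal to many times female-higher in fragments.

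grh encodes Grainyhead, a transcription factor of epidermal cells. All 9 of its loci were higher in the female pool while the host was at 2.90 FPKM there and 11.2 FPKM in the male pool. XLOC_002159 had 21 female and 3 male fragments, XLOC_002155 had 10 and 0, and XLOC_002154 had 19 and 8. The loci were low, at 1.45 FPKM or less, so 0 of the 9 were counted as female-higher on the FPKM scale.

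**Figure D5:**
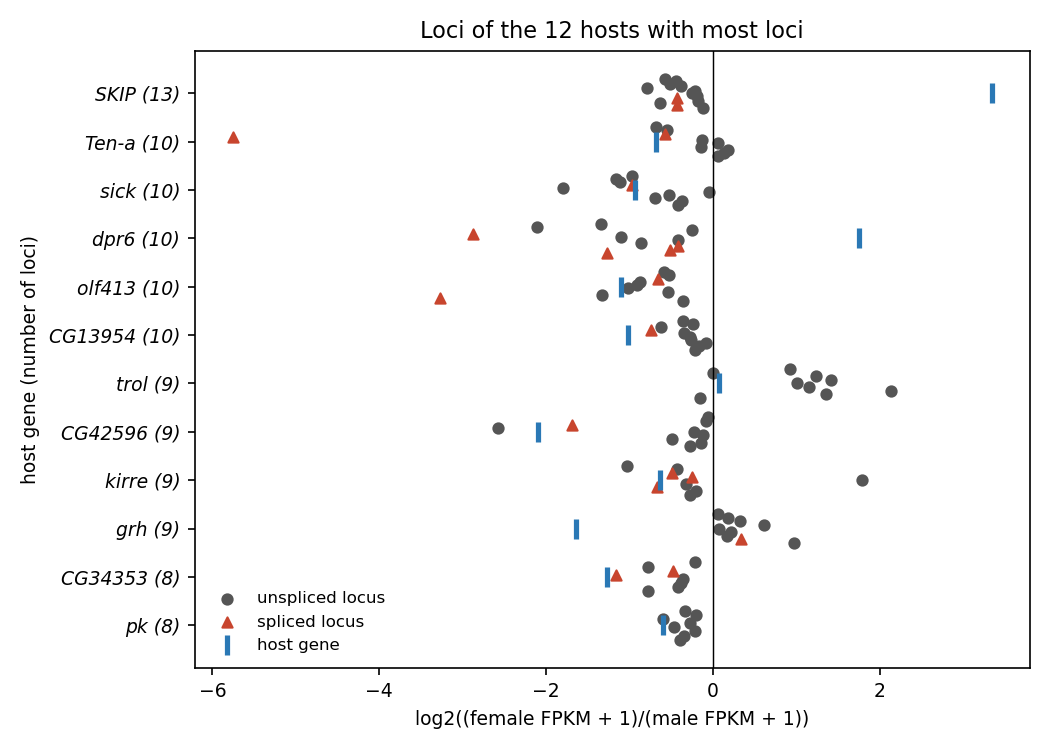
Log2 ratio of female over male FPKM (1 added to each) for the loci of the 12 hosts with most loci, 1 row per host with the number of loci in brackets; circles are unspliced loci, triangles spliced loci, and the blue bar is the host gene. Loci of dpr6 and SKIP lie left of 0 with their host bar on the right, and those of grh lie right of 0 with the host bar on the left.

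nrv3 stood out by level, with 6 loci that summed to 154 and 223 FPKM, beside 47.5 and 179 FPKM for nrv3 itself. Most of that sum came from 2 models under 140 nt, XLOC_001167 and XLOC_001170. The latter was at 34.8 and 10.5 FPKM, female-higher in a male-higher host. XLOC_001168, the only one of the 6 with recovered fragments, had 198 and 533. In bru-3, which encodes an RNA-binding protein of the Bruno family, 5 of 5 loci were at 0 or 1 fragment or listed at 0 in the female pool. Of these, 3 were spliced and antisense, at 4.97, 9.58 and 2.01 FPKM in the male pool (XLOC_002607, XLOC_002608 and XLOC_002609).

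Grouped by the role of the host, cell adhesion and axon guidance genes were hosts in 50 of 87 cases (57.5%) with 123 loci, and ion channel and transmitter receptor genes in 28 of 48 (58.3%) with 72 loci. Transcription factor genes were hosts in 49 of 119 cases (41.2%), signalling genes in 24 of 78 (30.8%) and RNA-binding protein genes in 12 of 46 (26.1%). Muscle structure genes were hosts in 1 of 27 cases. Over all genes it was 5.26%. These lists hold long genes, with a median span of 38304 nt for adhesion and 26666.5 nt for channels against 9041 nt for muscle, and the part of length was not tested.

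The counts that follow stand beside 40.7% male-higher and 21.5% female-higher over all rows at 1 FPKM and 44.2% male-higher over the intronic loci. Among adhesion genes, 26 of 32 loci at 1 FPKM were male-higher (81.2%) and 2 female-higher. Of these 26, 5 lay in dpr6. The median longest intron of the adhesion genes was 16791 nt, the highest among these lists. At 1 FPKM, 83.5% of all intronic loci in the group with the longest introns were male-higher. Over 2000 nt from a host exon it was 73.9%. The part of intron length and distance in the adhesion share was not tested. CadN, a neural cadherin gene, had 7 loci summing to 1.57 and 4.96 FPKM. Among channel and receptor genes, 4 of 19 were male-higher (21.1%) and 0 female-higher. There, nAcRalpha-80B, an acetylcholine receptor subunit, had 7 loci at 4.12 and 13.7 FPKM in sum, SK, a calcium-activated potassium channel, had 7 at 4.10 and 6.92, and cac, a calcium channel, had 6 at 3.59 and 4.38. Nmdar2, a glutamate receptor subunit, had 5 at 1.72 and 3.07.

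Transcription factor genes gave 12 male-higher loci of 25 (48%), near the shares over all rows and all intronic loci. jing, a zinc finger gene, and NK7.1, a homeobox gene, had 7 loci each with sums of 1.41 and 3.32 FPKM and of 1.18 and 3.43 FPKM. toy, a Pax6 gene, had 6 with 3.07 and 3.67. Signalling genes gave 11 of 31 (35.5%), also near those shares. The loci of fz, the Frizzled receptor, summed to 0.0328 and 7.83 FPKM in a host at 32.7 and 3.64 FPKM. Those of stan, an atypical cadherin of planar polarity, summed to 0.0147 and 3.19. RNA-binding protein genes gave 8 of 13. The sex determination genes Sxl, dsx and fru held 1 locus each, at 3.38 and 8.62 FPKM, 0.0854 and 1.71 FPKM, and 0.0246 and 0.612 FPKM in the female and male pool.

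Loci on the X chromosome differed from those on the large autosomal arms. From fragments, 83 of 186 X-linked loci were male-higher (44.6%, Wilson 95% interval 37.7 to 51.8%), and 682 of 1024 on 2L, 2R, 3L and 3R were (66.6%, interval 63.7 to 69.4%). Female-higher loci made up 26 of the 186 X-linked loci and 61 of the 1024 autosomal ones (5.96%). The gap was widest far from exons. Within 100 nt, 45.2% of X-linked and 44.3% of autosomal loci were male-higher, and beyond 2000 nt 26 of 50 and 82.2% were. Per 1e6 bases of intron the X held 21.2 loci, the autosomal arms 26.2 to 31.9, and chromosome 4 47.8. On chromosome 4, 31.0% of 29 loci were male-higher. Loci are not replicates, and these intervals cover counting over loci.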

How the data were processed

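RNA of whole flies was measured in 2 pooled libraries, and groups were taken from the labels. The authors deposited 1 table of FPKM and 1 annotation of transcript models. The submitters' processing notes name TopHat2 2.0.8, Cufflinks 2.0.2 and the build BDGP5, whose coordinates are printed here as deposited. The use of strand is not given in the sources used here. FPKM values were used without rescaling, with a pseudocount of 1 FPKM in log2 ratios and at least 1 FPKM in 1 library for a 2-fold call. No p-value was computed, since there was 1 library per sex. Depth was read from the low values, and fragments were recovered only for unspliced, unstranded models with 1 transcript and at least 300 nt. Fragment ratios carry exact 95% conditional binomial intervals. Distances and introns were taken from the deposited annotation, with overlaps from bedtools 2.31.1. The software was scipy 1.17.1, pandas 2.3.3, numpy 2.4.6 and matplotlib 3.10.9 under Python 3.11.15. The step search and the calls were tested on simulated data.

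Named loci were the 12 highest by mean FPKM, the 6 most female-higher and 6 most male-higher, the 6 highest spliced ones and the 5 most above their host in each library with at least 5 FPKM, and named hosts the 12 with most loci and at most 4 per host list. The members and lists were chosen with earlier results of these data known. Alternatives covered the pseudocount, level filters, scalings, the fold, model length, splicing, class code, exon overlap, which loci counted towards a host, and recovered fragments. Sequences are not printed here.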

Additional observations from a re-analysis of the deposited data

How the results depend on the processing

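Over 12 results and 91 alternatives, 37 kept their value within the limits (1.5 times for a count) and 54 moved. A change of direction was defined only for the medians, of which 0 changed sign. Counts and percents could only stay or move. The cause of each move was not tested beyond how the alternative is built. No paired analysis was possible because there was 1 library per sex. In each list below the order is male-higher loci, female-higher loci, loci that differ in their host's direction, median log2 ratio, male-higher percent within 100 nt of an exon, beyond 2000 nt and among spliced loci, leaving out those that did not move. As reported they were 260, 35, 111, -0.78, 14.5%, 73.9% and 85.9%. A 4-fold threshold gave 67, 8, 4, 4.84%, 18.1% and 30.8%. A pseudocount of 0.1 gave 60 female-higher, 199 with the host, -1.29, 25.8%, 83.9% and 93.6%, and medians of -3.25 and -3.18 for the log2 difference between locus and host in the female and male pool in place of -1.62 and -2.05. With 0.1 FPKM as the level, 905 and 1571 loci passed it in the female and male pool in place of 247 and 530, and the others were -0.36, 5.33%, 23.2% and 37.0%. With 5 FPKM, 33 and 83 passed, with 53, 10, 20, -1.20, 28.6% and 84%. With 1 FPKM in both libraries they were 26, 9, 13, -0.34, 6.06%, 33.3% and 0%, the last over only 3 spliced loci. The scalings also change which loci reach 1 FPKM, 588 as reported. Equal sums, with male values multiplied by 0.703, left 472 and gave 161 male-higher, 39 with the host, -0.44 and 65.1%, and equal ribosomal protein genes, with male values multiplied by 1.92, left 926 and gave 589, 22, 411, -1.15, 33.7% and 79.6%. Loci of at least 300 nt gave 9 female-higher, -0.92, 136 at 1 FPKM in the female pool and -1.97 for locus against host in the male pool. Unspliced loci alone gave 67.1% beyond 2000 nt. Recovered fragments, chosen after seeing the data, gave 793, 100 and 43.8%. Hosts with 2 or more loci numbered 95 in place of 347 when loci under 1 FPKM were left out. Female-higher loci made up 11.9% of calls as reported, 25.7% with 1 FPKM in both libraries, 22.6% with equal sums and 3.6% with equal ribosomal protein genes. At 10 fragments a locus can show only large differences.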

Other observations

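The following loci outside the named hosts were picked after their values were seen. CG42621, on the heterochromatic scaffold 3RHet, held 6 loci in 3 introns. XLOC_005300 had 449 female and 83 male fragments, a male over female ratio in FPKM of 0.177 (95% counting interval 0.138 to 0.224), and XLOC_005297 had 118 and 30. In the same gene XLOC_005299 had 2 and 201 fragments and XLOC_005298 had 22 and 275. The host was at 0.144 and 0.269 FPKM.

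CG32791 on the X had 5 loci, 4 of them higher in the female pool. XLOC_006022, a model of 6390 nt that begins or ends 7 nt from an exon, had 348 and 149 fragments, and XLOC_006023 had 30 and 7. The host was at 1.60 and 1.16 FPKM, in the same direction.

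The scaffold YHet of the Y chromosome held 2 loci, both in Ppr-Y. XLOC_006447 had 37 fragments in the female pool and 12 in the male pool, although females carry no Y chromosome. XLOC_006446, antisense and without recovered fragments, was listed at 0 in the female pool and at 1.57 FPKM in the male pool.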
